A study of Mus musculus with 8 samples.

Results

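The genes of intraflagellar transport and of the BBSome were examined in whole testis of mice with and without Tmem232, a gene for a transmembrane protein. The set holds 43 genes, chosen by name as the subunits of these complexes, their assembly factors and their motors, out of 19906 genes in the table. RNA was sequenced from 4 testes labelled Tmem232-/- and 4 labelled Tmem232+/+, with 1 library per mouse and all mice 2 months old. In the Tmem232-/- mice a fragment of the gene had been deleted in every cell by CRISPR-Cas9, and the Tmem232+/+ mice carried both intact copies and no other allele or treatment is named for either group. Total counts lay between 15428421 and 16350871 per library, and all 43 genes were among the 15787 that passed the filter on low counts.

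Intraflagellar transport carries building blocks along the microtubules of a growing cilium or flagellum. Trains of the IFT-B complex, pulled outward by kinesin-2, bring tubulin and axonemal parts to the tip, and trains with IFT-A are returned by cytoplasmic dynein-2. The BBSome is a coat-like complex that rides on these trains and moves membrane proteins, and chaperonin-like proteins put it together. In the testis these genes serve the spermatids, which build the sperm tail, and loss of several of them in mice is known to leave sperm without a normal flagellum.

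The targeted gene was read first as a check of the labels. Tmem232 lay at 148, 132, 123 and 122 CPM (counts scaled to the size of the library by the TMM method) in replicates 1 to 4 labelled Tmem232-/- and at 111, 106, 108 and 109.9 in those labelled Tmem232+/+. A gene was called where its adjusted p in the quasi-likelihood test of edgeR was under 0.05. All libraries labelled Tmem232-/- were above the others (log2 fold change 0.27, SE 0.0721, edgeR, Benjamini-Hochberg adjusted p = 0.0335). This call did not hold in 5 of 20 alternatives, with an adjusted p in edgeR of up to 0.114. A count over the whole gene does not show whether the deleted exons were read, so the labels were used as given and not checked by this gene. Libraries also differed inside each genotype. In replicates 1 and 4 labelled Tmem232-/- and in replicate 3 labelled Tmem232+/+, genes with long transcripts were low relative to genes with short ones. This was measured against the mean of their own genotype. Calls of the transport genes are given with and without these libraries, and marker sums and FPKM levels only with them.

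Germ cell markers differed between the groups. Of 12 markers of elongating spermatids 11 passed the test as higher in the libraries labelled Tmem232-/-, with a summed level of 1345 to 2226 CPM against 342 to 691 CPM, and of 12 markers of round spermatids 10 were higher and 1 was lower, with 1289 to 1544 CPM against 916 to 1210 CPM. Within the genotypes, elongating spermatid sums were highest in replicates 1 and 4 labelled Tmem232-/- (2226 and 2082 CPM) and replicate 3 labelled Tmem232+/+ (691 CPM). These are the libraries low in long transcripts, and a link was not tested. Of 9 spermatogonial markers 3 were lower, with 503 to 591 CPM against 595 to 709 CPM. The 10 spermatocyte markers summed to 2529 to 3259 CPM against 2895 to 3204 CPM, and the ranges overlapped. Of 5 markers of peritubular myoid cells 2 were lower, with 197 to 236 CPM against 250.2 to 296 CPM. The summed levels of Sertoli, Leydig, macrophage, endothelial, efferent duct and red blood cell markers overlapped between the groups. Of the 4 tested efferent duct and epididymis markers 1 was higher without overlap, Cst8 (log2 fold change 1.86, SE 0.213, edgeR, Benjamini-Hochberg adjusted p = 0.000125). The rest of these 4 did not pass, with log2 fold changes of -2.54 (Crisp1, SE 1.37), -0.25 (Rnase10, SE 0.148) and 0.11 (Esr1, SE 0.211). Their median was -0.071 with Cst8 included, so Cst8 does not stand for its list. No marker in the table was at 0 in every library. In whole testis, fewer cells of a type and less RNA per cell cannot be told apart, and the part of the markers that differed in the values of the transport genes was not tested.

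Most of the transport genes were close to level between the genotypes. Of the 43 genes 3 passed the test as higher in the libraries labelled Tmem232-/- (6.98%), namely Kifap3, Bbs5 and Ift81, beside 10.3% of all tested genes. None passed as lower with edgeR, beside 1.46% of all tested genes. At an unadjusted p under 0.05 there were 8 of the 43 in either direction (18.6%) beside 25.1% of all tested genes, and 3 of the 43 as lower (Kif3c, Wdr34 and Bbs2, 6.98%) beside 10.5%. DESeq2 and limma-voom each called these 3 genes higher and 0 lower. The other 40 genes had log2 fold changes from -0.24 (Kif3c) to 0.25 (Cluap1), and the 95% interval of each lay inside a 1.5-fold change in either direction. It did so for 41 of all 43 and for 10979 of the 15787 tested genes. It lay inside a 1.2-fold change for 19 of the 43 and for 2903 of the tested genes. Log2 fold changes are given ± SE from here on. These intervals are per gene and are not widened for the number of genes. The median log2 fold change was 0.018 over the 43 genes and -0.054 over all tested genes. Of the 43 genes 24 were above 0 and 19 below, and of all tested genes 6187 were above and 9600 below. The median of the 43 was -0.014 when libraries were scaled by size alone and lay between -0.012 and 0.058 with each library left out in turn, so its sign was not stable. A fold of at least 1.5 with an adjusted p under 0.05 held, as higher, for 2 of the 43, Kifap3 and Bbs5, and for 7.98% of all tested genes. A fold of at least 2 with an unadjusted p under 0.05 was met as higher by 0 of the 43 in edgeR and by 5.48% of all tested genes.

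**Figure D1:**
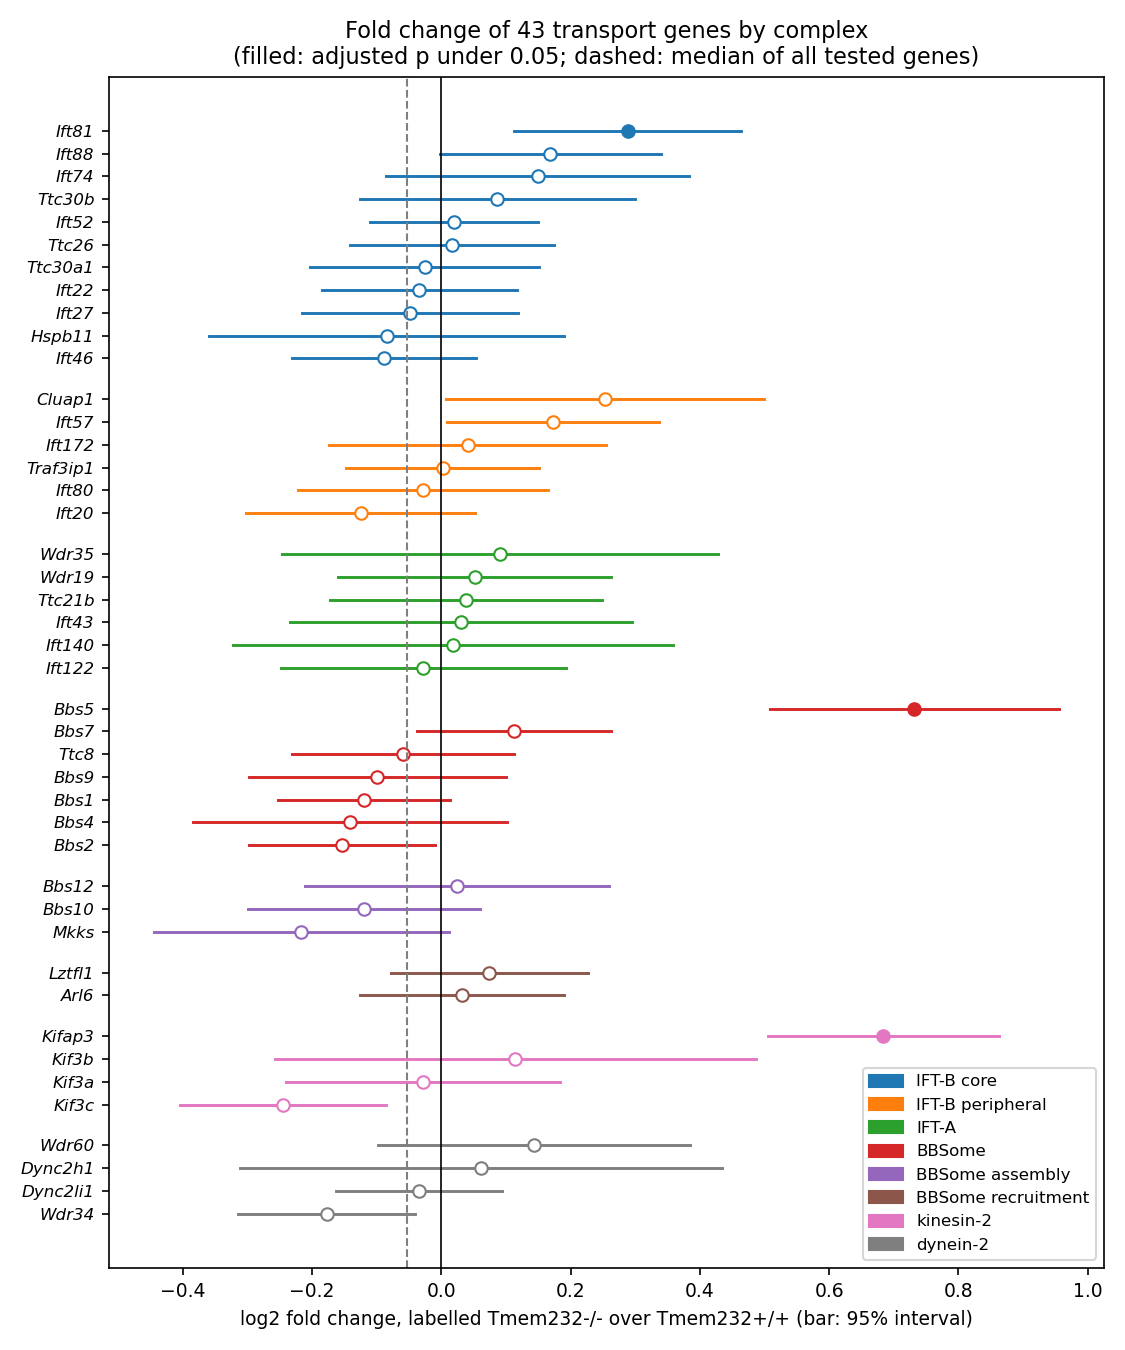
Log2 fold change (x axis, labelled Tmem232-/- over labelled Tmem232+/+) of each of the 43 genes (y axis), coloured by complex, with the 95% interval of the edgeR fit as a bar filled points for an adjusted p under 0.05 and a dashed line at the median of all tested genes. Bbs5 at 0.73 and Kifap3 at 0.68 stand to the right of all others, Ift81 follows at 0.29, and the other 40 genes lie between -0.24 and 0.25.

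The levels themselves spanned a wide range, read in deposited FPKM, which is a level per transcript length and can be set between genes. In the libraries labelled Tmem232+/+ the highest were Ift43, an IFT-A subunit, at 189 ± 36.6 FPKM (SD, n = 4), and the IFT-B core genes Ift74 at 153 ± 17.9, Ift22 at 144 ± 8.28 and Ift46 at 132 ± 6.45, followed by Ift140 of IFT-A at 123 ± 21.3. The ranges of mean ± SD of neighbours in this order overlapped. At the other end stood Bbs12, a chaperonin-like factor, at 3.08 ± 0.271 FPKM, Ttc30b at 5.71 ± 0.395, Mkks at 6.72 ± 0.411 and Kif3c at 7.89 ± 0.449, and here these ranges did not overlap. The BBSome subunits of the set other than Bbs7 (49.8 ± 2.996 FPKM) ranged in this genotype from 12.4 ± 0.822 for Bbs1 to 28.0 ± 2.86 for Bbs9, so these BBSome genes sat under most of the IFT genes. In the libraries labelled Tmem232-/- Ift43 was at 188 ± 20.8 FPKM and Bbs12 at 3.08 ± 0.147, and these genes remained the highest and the lowest.

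**Figure D2:**
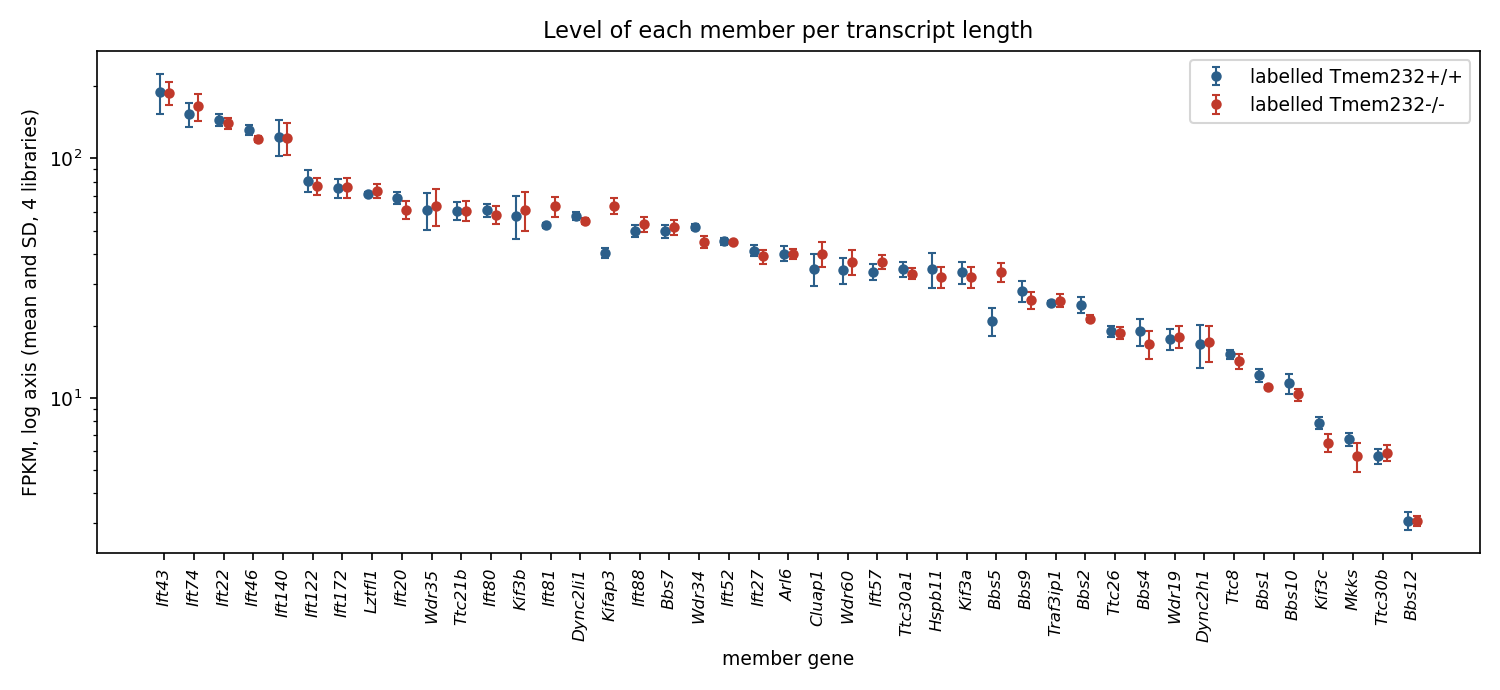
Deposited FPKM (y axis, log scale) of the 43 genes (x axis, ordered by level) as mean and SD of 4 libraries for each labelled genotype. Ift43 is highest and Bbs12 lowest, and the points of the genotypes stand apart for Kifap3 and Bbs5.

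The anterograde motor, kinesin-2, held the gene with the smallest p of the set. Kifap3 (Entrez ID 16579, chr1:163762138-163917107 in GRCm38.p6) codes for the non-motor subunit that links the KIF3A and KIF3B motor pair to its cargo. Kifap3 was at 252, 249.9, 235 and 204 CPM in replicates 1 to 4 labelled Tmem232-/- and at 152, 141, 137 and 156 CPM in those labelled Tmem232+/+. Every library labelled Tmem232-/- lay above every other library, and the mean rose 1.61-fold (log2 fold change 0.68, SE 0.0813, edgeR, Benjamini-Hochberg adjusted p = 0.000161, 95% interval 0.50 to 0.86). The exact permutation test of the 8 CPM values gave p = 0.0286, the smallest that the 70 arrangements allow. Its 2 motor partners did not pass the test. Kif3a had a log2 fold change of -0.028 ± 0.0962 and Kif3b of 0.11 ± 0.169, and the interval of Kif3b ran from -0.26 to 0.49. Relative to the geometric mean of Kif3a and Kif3b in FPKM, Kifap3 stood at 1.45 ± 0.0929 (SD over 4 libraries) under the label Tmem232-/- and at 0.926 ± 0.0486 in the others, with ranges of 1.34 to 1.56 and 0.88 to 0.971. The groups did not overlap in this ratio, and it was not tested.

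Kif3c, an alternative partner of Kif3a, had the lowest fold change of the set. It was at 45.3, 39.4, 44.5 and 46.8 CPM in the libraries labelled Tmem232-/- and at 50.7, 50.8, 55.6 and 51.3 CPM in those labelled Tmem232+/+. All 4 values of the first group lay below all 4 of the second, and the difference narrowly missed the threshold (log2 fold change -0.24, SE 0.0724, edgeR, Benjamini-Hochberg adjusted p = 0.0513). It passed the threshold, at an adjusted p of 0.0413 (edgeR, Benjamini-Hochberg), where libraries were scaled by their size alone. Exons of Kif3c overlap the opposite-strand genes Gm48512 and 1110002L01Rik over 3205 of 7406 exon bases. The sources used here do not say whether counting used strand, so counts of Kif3c are uncertain. Kif3c and Wdr34 were the 2 genes of the 43 (4.65%) whose CPM was lower without overlap, beside 6.88% of all tested genes, and 3 of the 43 were higher without overlap, beside 11.8%.

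**Figure D3:**
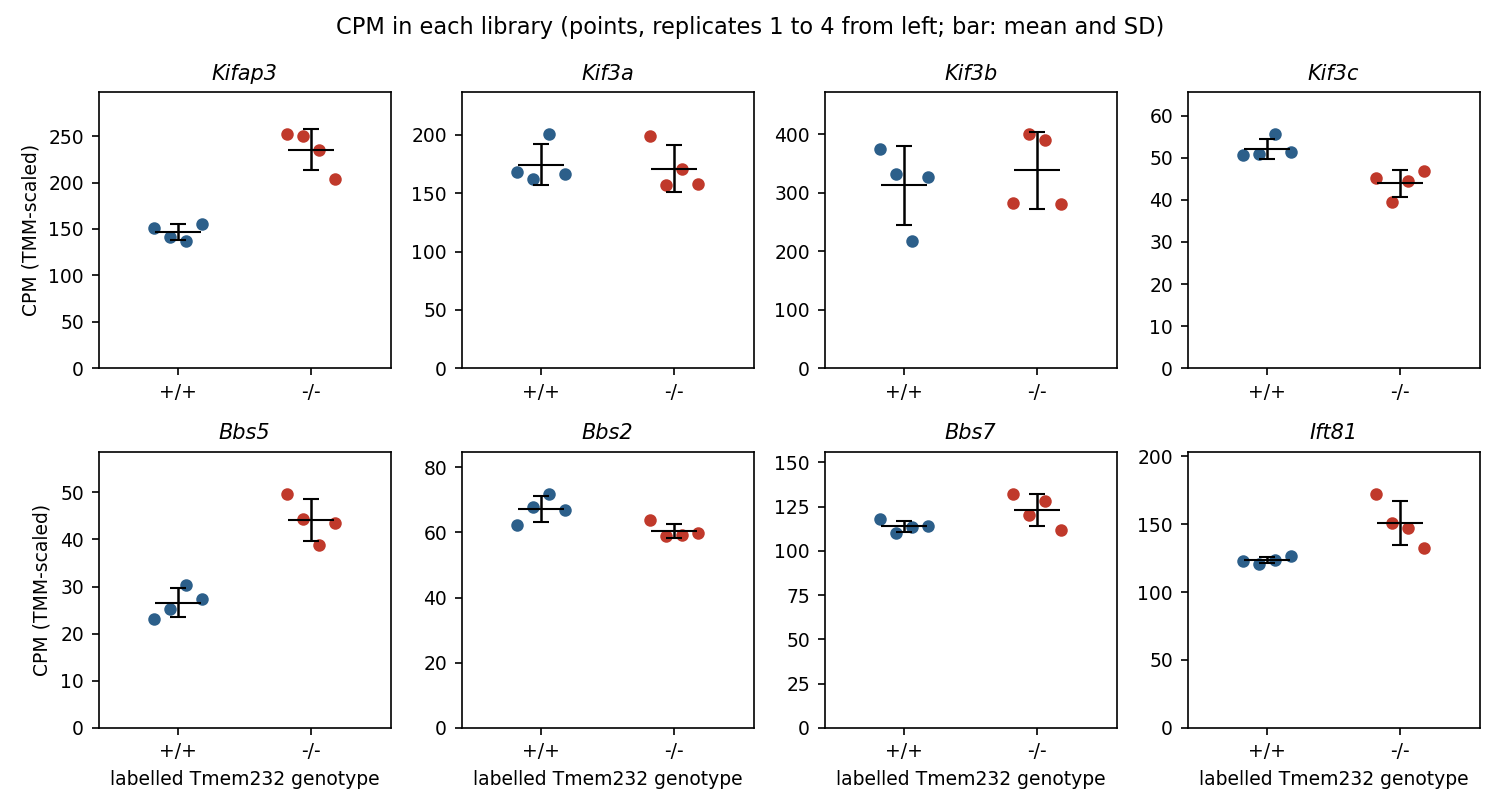
TMM-scaled CPM (y axis, from 0) of single genes in each library (points, replicates 1 to 4 from left to right) by labelled genotype (x axis), with mean and SD as bars. The points of the genotypes are apart for Kifap3, Bbs5 and Ift81, with a wider gap for Kifap3 and Bbs5.

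Of the 7 BBSome subunits in the set 1 passed the test, as higher, beside 10.3% of all tested genes. The further subunit Bbip1, which was on the list of other transport genes, had a log2 fold change of 0.013 ± 0.113 and did not pass. Bbs5 (Entrez ID 72569, chr2:69646730-69667569 in GRCm38.p6) codes for the subunit that binds phosphoinositides of the membrane. Its CPM in replicates 1 to 4 was 49.7, 44.4, 38.9 and 43.5 under the label Tmem232-/- and 23.2, 25.2, 30.4 and 27.5 under the label Tmem232+/+. The lowest library of the first group was above the highest of the second, and the mean rose 1.66-fold (log2 fold change 0.73, SE 0.102, edgeR, Benjamini-Hochberg adjusted p = 0.000459, 95% interval 0.51 to 0.96), the largest fold of the 43 genes. The exact permutation p was 0.0286. The other 6 subunits of the set did not pass the test. These were Bbs2 (-0.15 ± 0.0654 on the log2 scale), Bbs4 (-0.14 ± 0.111), Bbs1 (-0.12 ± 0.0608), Bbs9 (-0.099 ± 0.0906), Ttc8 (-0.059 ± 0.0781) and Bbs7 (0.11 ± 0.0683), and of them Bbs2 had an unadjusted p under 0.05. The median over the 7 subunits of the set was -0.099. Set against the geometric mean of these 6 subunits in FPKM, Bbs5 stood at 1.63 ± 0.157 (SD over 4 libraries) under the label Tmem232-/- and at 0.938 ± 0.0936 in the others. The ratio ranged from 1.41 to 1.77 and from 0.836 to 1.05, and it was not tested.

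Values of the 3 subunits next in order of p show how close the groups were. Bbs2, a subunit of the BBSome core, was at 63.7, 58.9, 59.1 and 59.9 CPM in the libraries labelled Tmem232-/- and at 62.2, 67.7, 71.9 and 66.9 CPM in the others (edgeR, Benjamini-Hochberg adjusted p = 0.171). Bbs1, which contacts the GTPase Arl6, was at 63.4, 61.7, 60.2 and 60.4 and 62.4, 69.6, 67.5 and 67.4 CPM (edgeR adjusted p = 0.251). Bbs7, a core subunit that pairs with Bbs2, was at 132, 120.1, 128 and 112 and 118, 110.2, 114 and 114 CPM (edgeR adjusted p = 0.338). The groups overlapped in all 3 genes, in Bbs2 and Bbs1 through replicate 1 of either genotype.

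The factors that build and place the BBSome did not pass the test. Mkks, a chaperonin-like protein of the assembly complex, was at 16.6, 13.9, 16.6 and 18.5 CPM in the libraries labelled Tmem232-/- and at 20.4, 17.1, 19.4 and 19.5 CPM in the others (log2 fold change -0.22, SE 0.103, edgeR, Benjamini-Hochberg adjusted p = 0.222), and the groups overlapped through replicate 2 labelled Tmem232+/+ and replicate 4 labelled Tmem232-/-. Exons of Mkks overlap annotated genes on the same and on the opposite strand, so its counts are uncertain, and those of Bbs12 do so too. Bbs10 and Bbs12, its partners in assembly, had log2 fold changes of -0.12 ± 0.0815 and 0.024 ± 0.107. Arl6, the GTPase that recruits the BBSome to membranes, was at 0.032 ± 0.0718, and Lztfl1, which regulates its entry into cilia, at 0.074 ± 0.0694. The count of these 5 genes with an unadjusted p under 0.05 in edgeR was 0.

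In the IFT-B core, 1 of 11 genes passed the test, as higher, beside 10.3% of all tested genes. Ift81 (Entrez ID 12589, chr5:122540265-122614546 in GRCm38.p6) codes for a subunit that binds tubulin together with Ift74. It was at 172, 151, 147 and 133 CPM in replicates 1 to 4 labelled Tmem232-/- and at 123, 121, 123 and 127 CPM in those labelled Tmem232+/+. The groups did not overlap, but the spread in the first group was wide and its lowest value was near the highest of the second, so that the mean rose 1.22-fold (log2 fold change 0.29, SE 0.0798, edgeR, Benjamini-Hochberg adjusted p = 0.038, 95% interval 0.11 to 0.46). The exact permutation p was 0.0286. This call did not hold without replicate 1, 2 or 3 labelled Tmem232-/-, or without replicate 2 or 4 labelled Tmem232+/+, with adjusted p of 0.0955, 0.0926, 0.0706, 0.0952 and 0.0848 in edgeR. Ift74, its partner, had a log2 fold change of 0.15 ± 0.107, with groups that overlapped.

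Ift88, a subunit of the core without which flagella do not form, was at 164, 156, 167 and 134 CPM in the libraries labelled Tmem232-/- and at 136, 143, 131 and 142 CPM in the others (log2 fold change 0.17, SE 0.0779, edgeR, Benjamini-Hochberg adjusted p = 0.207). Replicate 4 of the first group lay inside the range of the second, and without it the log2 fold change of 0.24 passed, at an adjusted p in edgeR of 0.0277. Ift88 did not pass in 18 of 20 alternatives. With each library left out in turn its log2 fold change ranged from 0.13 to 0.24, with adjusted p in edgeR of up to 0.409. The other 8 core genes had log2 fold changes from -0.089 (Ift46, which links outer dynein arms to the train) to 0.087 (Ttc30b, a tetratricopeptide repeat subunit). Between these lay the small GTPases Ift22 at -0.034 and Ift27 at -0.048, Hspb11, the partner of Ift27, at -0.085, the scaffold Ift52 at 0.02, and the repeat proteins Ttc26 at 0.017 and Ttc30a1 at -0.026. Counts of Ttc30a1, Ttc30b, Hspb11 and Wdr34 were not whole numbers, in all 8 libraries for Ttc30b, 7 each for Ttc30a1 and Hspb11 and 5 for Wdr34, and reads shared with near copies can move between such genes.

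The 6 peripheral IFT-B genes, which hold the part of the train that binds kinesin-2, did not pass the test, and 2 of the 6 had an unadjusted p under 0.05, a threshold that 25.1% of all tested genes met. Ift57 was at 98.7, 83.8, 87.0 and 86.1 CPM in the libraries labelled Tmem232-/- and at 75.8, 74.2, 85.6 and 79.9 CPM in the others (log2 fold change 0.17, SE 0.0744, edgeR, Benjamini-Hochberg adjusted p = 0.177). Its groups overlapped through replicate 3 labelled Tmem232+/+. Cluap1, a calponin homology protein that pairs with Ift57 on the train, was at 69.3, 54.5, 53.5 and 55.9 and 43.8, 45.8, 59.1 and 46.9 CPM, with a log2 fold change of 0.25 ± 0.112 (edgeR, Benjamini-Hochberg adjusted p = 0.187). Replicate 1 labelled Tmem232-/- and replicate 3 labelled Tmem232+/+ stood above the rest of their groups. Without the latter Cluap1 passed as higher (0.39 on the log2 scale, adjusted p = 0.0164 in edgeR). Cluap1 did not pass in 18 of 20 alternatives. With each library left out in turn its log2 fold change ranged from 0.16 to 0.39, with adjusted p in edgeR of up to 0.401. The remaining genes were Ift20, which also sits at the Golgi, at -0.12 ± 0.0805, Ift80 at -0.028 ± 0.0879, Ift172, the largest subunit, at 0.041 ± 0.0972, and the microtubule-binding Traf3ip1 at 0.0021 ± 0.068. Exons of Ift57 and Ift88 overlap a gene on the opposite strand. Those of Cluap1 overlap 1700016D08Rik and Gm15537 on the opposite strand and Gm20695 on the same strand. Bbs4, Arl6 and Lztfl1 overlap a gene on the opposite strand as well.

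The genes that serve the way back from the tip did not pass the test. All 6 IFT-A genes had log2 fold changes between -0.028 and 0.091, with a median of 0.034, and the count with an unadjusted p under 0.05 in edgeR was 0. Ift140, Ift122, Wdr19 and Wdr35, the beta-propeller subunits, were at 0.018, -0.028, 0.052 and 0.091, and Ttc21b and Ift43 at 0.038 and 0.031. In cytoplasmic dynein-2, the heavy chain Dync2h1 was at 0.062 ± 0.17, the light intermediate chain Dync2li1 at -0.035 ± 0.0587 and the intermediate chain Wdr60 at 0.14 ± 0.11. Wdr34, the other intermediate chain, was at 71.1, 71.6, 75.8 and 77.2 CPM in the libraries labelled Tmem232-/- and at 87.3, 78.8, 84.0 and 84.3 CPM in the others (log2 fold change -0.18, SE 0.062, edgeR, Benjamini-Hochberg adjusted p = 0.0985). All 4 values of the first group lay below the second. With deposited FPKM in limma, in place of counts, Wdr34 passed as lower, at an adjusted p of 0.0415 with a pseudocount of 1.

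Within a genotype, the libraries differed along the length of the transcripts. For each gene the deviation of a library from the mean log2 CPM of its own genotype was taken, and it was set against effective transcript length, which the counts and FPKM imply. Dync2h1, with 13146 bases the longest transcript of the set, deviated by -0.53 in replicate 3 labelled Tmem232+/+ and by -0.21 and -0.25 in replicates 1 and 4 labelled Tmem232-/-, and by 0.10 to 0.26 in the other 5 libraries. Kif3b, Ift140 and Wdr35, also long, were at -0.50, -0.47 and -0.43 in that replicate 3. The short Ift43 and Hspb11 went the opposite way there, at 0.34 and 0.22. Length did not order all genes, since the long Kif3a was high in the same replicate 3, at 0.21. Spearman's rho of deviation and length over the 43 genes, given as a description, in replicates 1 to 4 was -0.434, 0.519, 0.652 and -0.641 under the label Tmem232-/- and 0.313, 0.685, -0.646 and 0.539 under the label Tmem232+/+. Over all 15787 tested genes it had the same sign in each library and ranged from -0.446 to 0.426. Values of a library share its depth and its RNA.

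**Figure D4:**
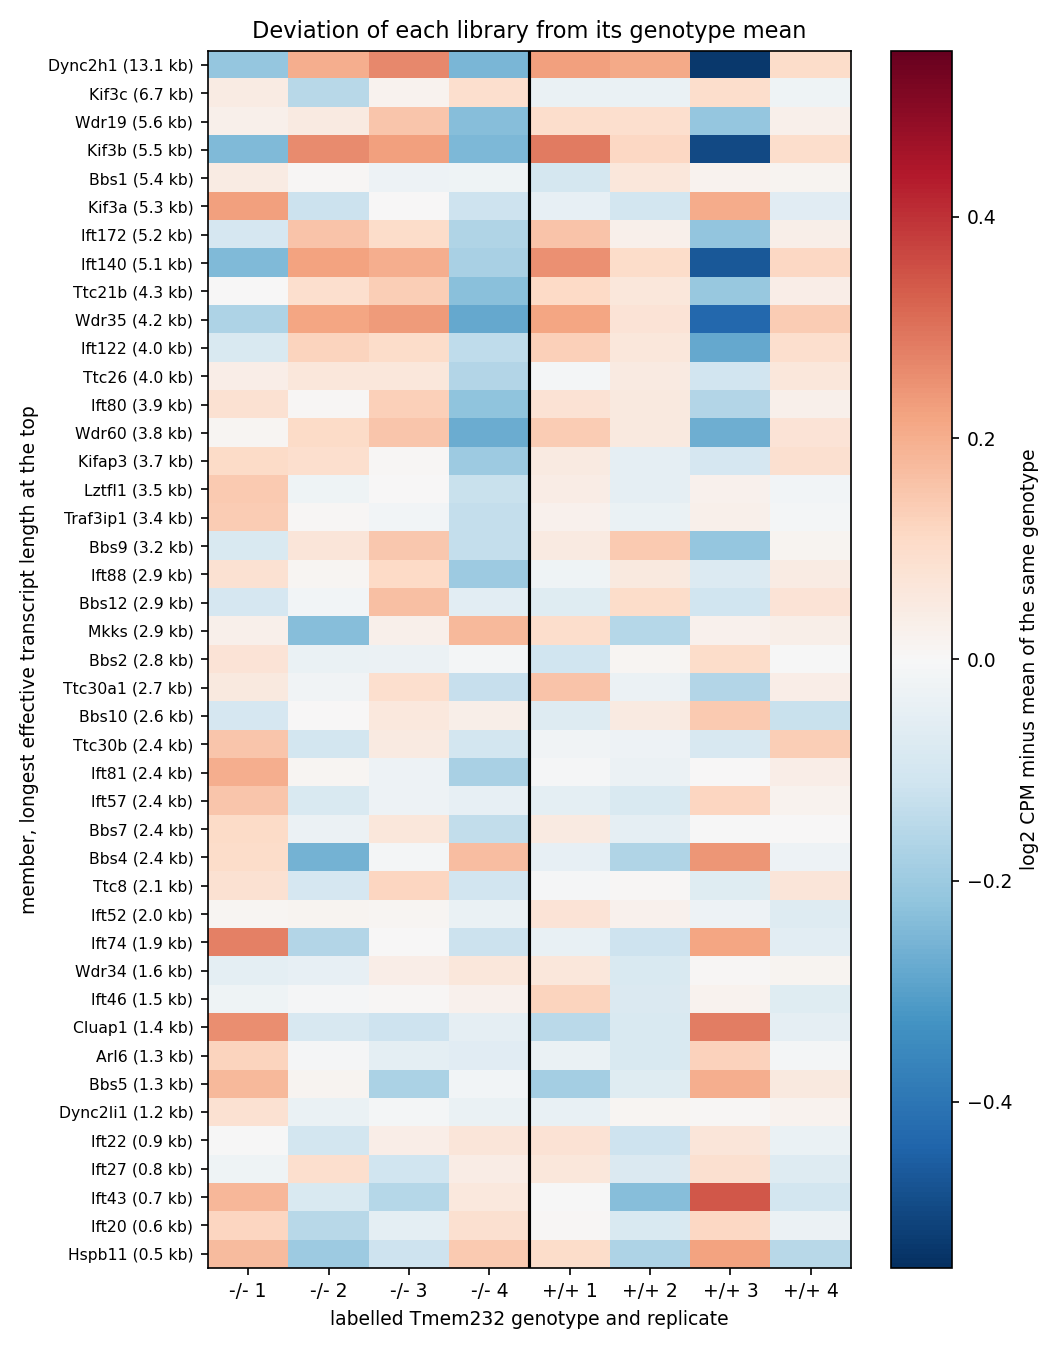
Deviation of log2 CPM from the mean of the same labelled genotype (colour, red for above and blue for below) for the 43 genes (y axis, longest effective transcript at the top) in the 8 libraries (x axis). The long genes Dync2h1, Kif3b, Ift140 and Wdr35 are blue in replicates 1 and 4 labelled Tmem232-/- and in replicate 3 labelled Tmem232+/+, with Dync2h1 at -0.53 in that replicate 3.

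The rank correlation of fold change between genotypes with length was small, with a rho of 0.105 over the 43 genes and 0.00126 over all tested genes. Such a rho can miss a trend that is confined to some lengths. The spread was wide in some long genes. Kif3b, Dync2h1, Ift140 and Wdr35 had the largest standard errors of the set, from 0.153 to 0.17, where the median was 0.0815. Without the 3 libraries in which these long transcripts were low, 8 of the 43 genes passed as higher, namely Kifap3, Bbs5, Ift81, Ift88, Cluap1, Kif3b, Wdr35 and Wdr60, and 0 passed as lower in edgeR. Of the 15979 genes tested in that fit 12.3% were higher. These libraries had been picked for the low values of long genes of the set, so leaving them out narrows the spread of those genes by construction (the SE of Kif3b went from 0.169 to 0.0649), and nothing is read from the 5 further calls. With all libraries and an offset that follows length, the 3 genes passed as higher, beside 10.7% of all genes, and 6 of the 43 passed as lower, beside 14.8% of all genes. The 6 were Hspb11, Ift20, Ift22, Ift27, Ift43 and Wdr34. All but Wdr34 are the shortest transcripts of the set, with effective lengths of 462 to 939 bases. The offset itself lowered the log2 fold changes of these short genes. Hspb11 went from -0.085 to -0.41, Ift20 from -0.12 to -0.39, and Ift43 changed sign, from 0.031 to -0.22. That offset would also take out any genotype difference that runs with length, 2339 genes of the table were lower with it, and the cause of these further calls was not tested. Kifap3 and Bbs5 passed as higher in both of these fits and in the other 18 alternatives, with log2 fold changes from 0.64 to 0.76 and from 0.63 to 0.83.

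The promoters of the set were read for motifs of the RFX factors, which drive genes of cilia and bind the X-box. RefSeq windows of 300 bases on GRCm38.p6, from 250 before to 50 after a start, were found for 38 of the 43 genes, in 39 windows. Windows of Ift81, Ift80, Ift122, Ttc30b and Dync2li1 were not analysed here. The paired X-box, the palindrome-like site that an RFX dimer binds, was found on either strand in 6 of the 39 windows (15.4%) and in 1.29% of 32851 windows of the same length, and the shorter X-box GTTGCC, which can lie inside it, in 15 (38.5%) and 12.5%. The cAMP response element TGACGTCA was found in 2 windows (5.13%), of Ift57 and Mkks, and in 1.79%. The 7 paired matches are shown as the letters behind this count, with the match in capitals and 8 bases on either side, read 5′ to 3′ along the strand of the gene and placed by their first base.
Bbs1, chr19:4906613-4906626, minus strand, 1 base downstream of the start: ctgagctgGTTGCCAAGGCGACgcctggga
Bbs4, chr9:59353472-59353485, minus strand, 23 bases downstream of the start: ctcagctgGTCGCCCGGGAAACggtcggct
Bbs7, chr3:36613497-36613510, minus strand, 121 bases upstream of the start: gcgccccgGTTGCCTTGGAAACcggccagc
Ift22, chr5:136908087-136908100, plus strand, 63 bases upstream of the start: ctgtcaggGTTTCCTGGGCTACtgcgcagc
Ift22, chr5:136908117-136908130, plus strand, 33 bases upstream of the start: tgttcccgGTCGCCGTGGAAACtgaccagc
Ift57, chr16:49699207-49699220, plus strand, 87 bases upstream of the start: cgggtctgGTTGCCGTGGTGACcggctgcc
Ttc26, chr6:38381491-38381504, plus strand, 33 bases upstream of the start: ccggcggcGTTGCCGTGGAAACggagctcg

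The 6 genes with a paired X-box did not pass the test, with log2 fold changes of -0.12 (Bbs1), -0.14 (Bbs4), 0.11 (Bbs7), -0.034 (Ift22), 0.17 (Ift57) and 0.017 (Ttc26). Among the 15 genes with the shorter X-box 1 passed, Bbs5, beside 6.98% of all 43 and 10.3% of all tested genes. The windows of the 2 genes with the largest folds are printed in full, with the shorter X-box in capitals. The window of Bbs5 holds 1 such match, downstream of the start, and that of Kifap3 holds no match to any of the 3 motifs. The windows of Bbs5 and Kifap3 each lie at an annotated start inside the listed span of the gene, and other starts were not read.
Bbs5, chr2:69646921-69647220, plus strand: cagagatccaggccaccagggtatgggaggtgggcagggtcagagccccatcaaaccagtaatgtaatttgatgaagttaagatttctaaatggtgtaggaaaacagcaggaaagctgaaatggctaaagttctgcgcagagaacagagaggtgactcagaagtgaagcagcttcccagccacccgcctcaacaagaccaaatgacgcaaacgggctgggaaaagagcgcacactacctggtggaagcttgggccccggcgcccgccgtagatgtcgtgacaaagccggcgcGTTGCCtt
Kifap3, chr1:163779333-163779632, plus strand: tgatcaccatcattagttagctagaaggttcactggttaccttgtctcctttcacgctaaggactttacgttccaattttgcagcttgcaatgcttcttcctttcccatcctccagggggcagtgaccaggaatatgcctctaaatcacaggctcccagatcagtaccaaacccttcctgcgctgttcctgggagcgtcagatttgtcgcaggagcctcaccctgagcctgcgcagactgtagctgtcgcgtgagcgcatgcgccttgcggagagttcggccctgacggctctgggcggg
A match is a run of letters and not a bound site.

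Other genes of ciliary transport were taken from a list of 66, of which 64 were tested. Of these 11 passed as higher in the libraries labelled Tmem232-/- (17.2%, beside 10.3% of all tested genes). As lower, 1 of the 64 passed, beside 1.46% of all tested genes. The median log2 fold change was 0.027. Kif17, the homodimeric kinesin-2 motor, was at 123, 134, 106 and 101 CPM in the libraries labelled Tmem232-/- and at 51.7, 49.0, 59.0 and 60.1 CPM in those labelled Tmem232+/+, without overlap (log2 fold change 1.08, SE 0.103, edgeR, Benjamini-Hochberg adjusted p = 4.77e-05). Arl13b, a GTPase of the ciliary membrane, had a log2 fold change of 0.53 ± 0.0817 (adjusted p = 0.000909 in edgeR), and Rp2, which activates the GTP hydrolysis of Arl3, one of 0.79 ± 0.125 (adjusted p = 0.00115 in edgeR). Rfx1 had a log2 fold change of 0.64 ± 0.0989, Rfx3 of 0.63 ± 0.116 and Foxj1 of 0.53 ± 0.0891, with adjusted p of 0.000982, 0.00331 and 0.00174 in edgeR. These are transcription factors of ciliated cells. The other RFX genes of the list, Rfx2 at 0.036 ± 0.134 and Rfx4 at 0.16 ± 0.0762, did not pass. The other 5 that rose were the ciliary kinase Mak, Sclt1, Cep290, Odf2 and the dynein light chain Dynll2, at log2 fold changes of 0.24 to 0.52. Of these, Odf2 codes for a structural protein of the sperm flagellum. The gene that fell was Cdk20, a ciliary kinase, at -0.26 ± 0.0684 (adjusted p = 0.0265 in edgeR), and these last 6 are named after their values were seen.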

How the data were processed

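RNA of whole testis from 8 mice was sequenced in pairs of reads. The authors' tools were HISAT and Bowtie2 for mapping to GRCm38.p6, and StringTie and featureCounts for counting. The deposited estimated counts are not normalized and were rounded to whole numbers. The deposited FPKM values are per kilobase and per library and gave levels between genes and, with the counts, effective lengths. Deposited log2 fold changes and p-values of the authors' DESeq2 comparison were not used.

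Genotypes were taken from the labels and compared with the quasi-likelihood test of edgeR 4.0.16 in R 4.3.3, after its filter on low counts and TMM scaling, without covariates. P-values were adjusted by Benjamini and Hochberg over 15787 genes at a threshold of 0.05. They measure the spread between mice. Single values were compared by two-sided exact permutation tests over 70 arrangements. Depth differed little between libraries. Steps were tested on simulated data. Full values are given for genes that passed and then by p up to 12 genes, other transport genes up to 6. The genes, lists and tests were chosen with earlier results of these data known, and marker lists came from general knowledge. Motif searches covered both strands. Alternatives were DESeq2 1.42.0, limma 3.58.1 on counts (voom) or on log2(FPKM + 1) or log2(FPKM + 0.1), other scaling and filters, the replicate number as a block, each library left out in turn, and, chosen after seeing the data, a length-dependent offset and 3 libraries left out.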

Additional observations from a re-analysis of the deposited data

Results flagged for a closer look

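Among the 43 transport genes and Tmem232, 5 of 88 groups of 4 libraries held a value far from the other 3 by Dixon's test, where chance gives about 4.4, or 1 in 20. In replicate 4 labelled Tmem232-/-, Ift52 was low at 86.3 CPM and Ttc26 was low at 67.4 CPM. In replicate 1 labelled Tmem232-/-, Cluap1 was high at 69.3 CPM. In replicate 3 labelled Tmem232+/+, Kif3a was high at 201 CPM and Kif3c was high at 55.6 CPM. All 5 values came from the 3 libraries in which long transcripts were low relative to short ones. They did not follow length, since the long Kif3a and Kif3c were high. The number of values was near chance, and nothing is read from where they lay.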

How the results depend on the processing

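For Kifap3 and Bbs5 the higher call remained in all 20 alternatives, and Ift81 kept it in 14. Of 800 values of the other 40 transport genes under alternatives, 16 passed the threshold, in 12 genes, and 1 of these changed sign, Ift43, at -0.22 with the length-dependent offset. They include the 6 lower calls with that offset (14% of the 43, beside 14.8% of all tested genes). Others are higher calls without the 3 libraries, where 18.6% of the 43 and 12.3% of all tested genes passed. The same count of values was not made over all tested genes. None of the 3 called genes changed sign. The number of transport genes called higher was 8 without the 3 libraries low in long transcripts, where 1963 of all tested genes were higher against 1633 with them (the libraries were picked for low values of long genes of the set), and 0 under a fold of 2 with an unadjusted p under 0.05. The number called lower was 1 with library size alone (Kif3c), 1 with log2 FPKM at either pseudocount (Wdr34) and 6 with the length-dependent offset. Their median log2 fold change, 0.018, had no stable sign. It was 0.064 without a filter, -0.038 with the length-dependent offset, -0.014 with library size alone, -0.012 with log2 FPKM at either pseudocount and -0.012 to 0.058 with each library left out, below 0 without replicate 2 or 3 labelled Tmem232-/- or replicate 4 labelled Tmem232+/+.

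Over all tested genes the number called lower was 230. It was 131 with the size factors of DESeq2, 415 with library size alone, 71 without a filter, 466 and 448 with log2 FPKM at pseudocounts of 1 and 0.1, 37 to 356 with each library left out in turn (the lowest on leaving out replicate 1 labelled Tmem232+/+, the highest on leaving out replicate 4 of the other genotype, and over 1.5 times from 230 on leaving out any library but replicate 3 labelled Tmem232+/+), 2339 with the length-dependent offset and 439 with the 3 libraries left out. The cause was not tested. The median over all genes was -0.028 with DESeq2, -0.029 with its size factors, -0.087 with library size alone, 3.25e-05 without a filter, -0.068 and -0.086 with FPKM, -0.056 to -0.0067 with each library left out, -0.11 with the length-dependent offset and -0.029 with the 3 libraries left out.

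Replicate numbers are shared by the labels, which do not say whether they pair the samples. Deviations of same-numbered libraries correlated at -0.0606, 0.0716, -0.332 and -0.105. These deviations also run with transcript length, so the correlations cannot decide whether samples were paired. With the replicate block, the number of genes called lower was 28, Ift81 had an adjusted p of 0.126 in edgeR, and Tmem232 had a log2 fold change of 0.26 with an adjusted p of 0.114. For Tmem232 the log2 fold change ranged from 0.21 to 0.32 with each library left out, and the adjusted p in edgeR was 0.0858, 0.086, 0.0888 and 0.0892 without replicates 1 and 2 labelled Tmem232-/- and 2 and 4 labelled Tmem232+/+. Standard errors of the transport genes lay between 0.0587 and 0.17 on the log2 scale, and differences of over 2 such errors did not all pass, such as Kif3c at -0.24 with an SE of 0.0724.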
